A study of Homo sapiens with 12 samples.

Results

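Heat shock chaperones bind proteins that are unfolded or not yet folded, and help them reach or keep their shape. HSP70 proteins take up exposed stretches of a client, J-domain partners such as DNAJB1 deliver clients and drive ATP hydrolysis, and HSP110 proteins release the nucleotide. HSP90 proteins act late, on kinases and steroid receptors that include the oestrogen receptor, while HSPD1 and HSPE1 form the folding chamber of the mitochondrial matrix. Heat shock factor HSF1 switches many of these genes on by binding repeats of the letters NGAAN upstream of them, although several are also made at high levels without stress.

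The 10 genes described are HSP90AA1, HSP90AB1, HSPA1A, HSPA1B, HSPA8, HSPD1, HSPE1, HSPH1, DNAJB1 and HSPB1, out of 19460 genes in the RNA table. They were chosen by symbol, from a list drawn up with the RNA levels and log2 changes of these same libraries in view. RNA differences between the treatments are therefore given as a description, without a test. Chromatin accessibility came from other libraries. Genes of this name are known for upstream heat shock elements, so the shares holding them are a description too.

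T-47D is a human luminal breast cancer cell line that carries the oestrogen receptor, and the labels give its genotype as wild type. Poly(A) RNA sequencing covered 3 DMSO cultures and 3 cultures given 1 µM palbociclib, an inhibitor of the cell cycle kinases CDK4 and CDK6, each for 24 h. ATAC-seq, which cuts open chromatin with a transposase, covered 3 further DMSO (0.1%) and 3 further palbociclib cultures of the same dose and time, with 50000 cells per replicate. All libraries come from 1 cell line at 1 dose and 1 time, and each is bulk, so fewer cells of a kind and less RNA per cell cannot be told apart.

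RNA levels are FPKM, reads scaled to transcript length and to library size, so levels can be set side by side between genes. Changes are differences of log2(FPKM + 1), palbociclib minus DMSO. The fit held 15869 genes, those whose FPKM averaged 0.5 or more, and their median change was 0.00. All 10 chaperones passed that filter. MKI67, a proliferation marker, fell from 30.8 ± 1.27 to 1.62 ± 0.117 FPKM (SD, n = 3 per group; limma adjusted p = 8.08e-10), as did the other 5 of 6 proliferation genes listed as a check of the treatment. The summed level of 9 luminal markers was 5593 to 6118 FPKM with DMSO and 7516 to 8296 with palbociclib, 8 of the 9 rose, and ESR1 went from 43.2 ± 1.09 to 48.2 ± 1.81 FPKM (limma adjusted p = 0.0118). Of 9 markers of other cell types 3 were analysed here, with COL1A1 at 23.1 to 26.0 FPKM, VIM at 1.17 to 2.19 and COL1A2 at 0.26 to 0.47 over the 6 libraries, and 0 of the 2 tested changed. ATAC libraries held 12830062 to 18250496 counts in peaks.

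The letters upstream of these genes are shown first, because the heat shock element is what most of them share. A heat shock element pair was searched as GAANNTTC and TTCNNGAA, and a triplet as GAANNTTC followed by NNGAA or TTCNNGAA followed by NNTTC, so that every triplet also holds pairs. The searched windows ran from 250 bases before to 50 bases after each start listed by RefSeq on GRCh38.p14, and all 10 genes were matched, with 16 starts. A pair lay in 9 of these 16 windows and in 8 of 10 genes, against 13.5% of 35116 windows of the same length. A triplet lay in 4 windows, of HSP90AA1, HSP90AB1, HSPA8 and HSPD1, against 0.49% of windows. Pieces of 30 bases around the elements of the genes with triplets, and of DNAJB1, which holds single pairs, are given 5′ to 3′ on the gene's strand, with the matched letters in capitals.
HSP90AA1 (chr14:102087104-102087133, minus strand): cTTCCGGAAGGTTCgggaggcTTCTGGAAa
HSP90AB1, distal (chr6:44247770-44247799, plus strand): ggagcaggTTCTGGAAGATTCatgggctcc
HSP90AB1, proximal (chr6:44247823-44247852, plus strand): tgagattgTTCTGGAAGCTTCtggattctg
HSPA8, distal (chr11:123062345-123062374, minus strand): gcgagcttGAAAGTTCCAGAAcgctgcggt
HSPA8, proximal (chr11:123062170-123062199, minus strand): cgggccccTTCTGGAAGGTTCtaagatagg
HSPD1 (chr2:197500061-197500090, minus strand): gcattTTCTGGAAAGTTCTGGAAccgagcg
DNAJB1, distal (chr19:14518456-14518485, minus strand): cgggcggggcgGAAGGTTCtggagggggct
DNAJB1, proximal (chr19:14518426-14518455, minus strand): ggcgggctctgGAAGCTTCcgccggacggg

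These pieces lie inside the annotated span of their genes, upstream of a listed start. The HSPD1 piece holds 3 overlapping pairs, and the HSP90AA1 piece holds a triplet and a separate pair. A match describes the letters and says nothing of whether a factor sat there.

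HSPA1A and HSPA1B, which encode the stress-inducible HSP70, are near-identical copies in the major histocompatibility region, with starts 12195 bases apart. The 250 bases before each start are shown to make the likeness visible, with the heat shock element pair in capitals. An alignment had 235 identical bases, 14 mismatches and 2 gap bases, 94.4% identity of the aligned bases. HSPB1 follows, because it was the 1 gene of the 10 whose RNA lay apart and higher.
HSPA1A upstream (chr6:31815293-31815542, plus strand): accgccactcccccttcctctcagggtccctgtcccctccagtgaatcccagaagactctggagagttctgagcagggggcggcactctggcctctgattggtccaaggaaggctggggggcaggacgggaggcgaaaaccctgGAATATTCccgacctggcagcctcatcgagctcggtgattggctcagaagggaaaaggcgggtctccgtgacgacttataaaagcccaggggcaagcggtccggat
HSPA1B upstream (chr6:31827488-31827737, plus strand): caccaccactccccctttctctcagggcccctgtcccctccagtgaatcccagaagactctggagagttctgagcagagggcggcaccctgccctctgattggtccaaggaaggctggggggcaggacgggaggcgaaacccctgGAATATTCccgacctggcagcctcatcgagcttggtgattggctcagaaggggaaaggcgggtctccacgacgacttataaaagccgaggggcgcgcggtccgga
HSPB1 upstream (chr7:76302423-76302672, plus strand): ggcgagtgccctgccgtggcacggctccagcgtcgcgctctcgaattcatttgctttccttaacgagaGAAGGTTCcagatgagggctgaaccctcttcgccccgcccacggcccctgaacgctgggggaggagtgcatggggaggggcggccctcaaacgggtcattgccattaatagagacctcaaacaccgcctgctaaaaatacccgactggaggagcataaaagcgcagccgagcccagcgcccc

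HSPA1A and HSPA1B were the only members with the letters TATAAA in the window, found in 7.33% of all windows. A CCAAT box (CCAAT or ATTGG) lay in 7 member windows of 5 genes, against 34.6% of windows. E2F-like sites (TTTCCCGC, TTTGGCGC or TTTCGCGC, both strands), which 2.74% of windows hold, were in 0 of the 16 member windows.

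HSPD1 and HSPE1 are read in opposite directions from starts 105 bases apart. The 104 bases between them, on the plus strand, lie under a single accessible region that both genes share, and no capitals are used because no heat shock element pair was found in them.
between HSPD1 and HSPE1 (chr2:197500275-197500378, plus strand): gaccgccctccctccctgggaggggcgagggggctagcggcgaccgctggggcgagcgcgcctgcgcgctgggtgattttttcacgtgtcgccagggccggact

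RNA levels of the chaperones separated into 3 behaviours. In 5 genes every palbociclib library lay below every DMSO library (HSP90AA1, HSPA8, HSPD1, HSPE1 and HSPH1), in 1 gene every palbociclib library lay above (HSPB1), and in 4 genes the groups overlapped (HSP90AB1, HSPA1A, HSPA1B and DNAJB1). Groups lay apart and lower in 28.2% of all tested genes, and apart and higher in 26.5%. Nothing is read from the members' count beside these, because the list was chosen with the contrast known. The median log2 change over the 10 was -0.21.

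**Figure D1:**
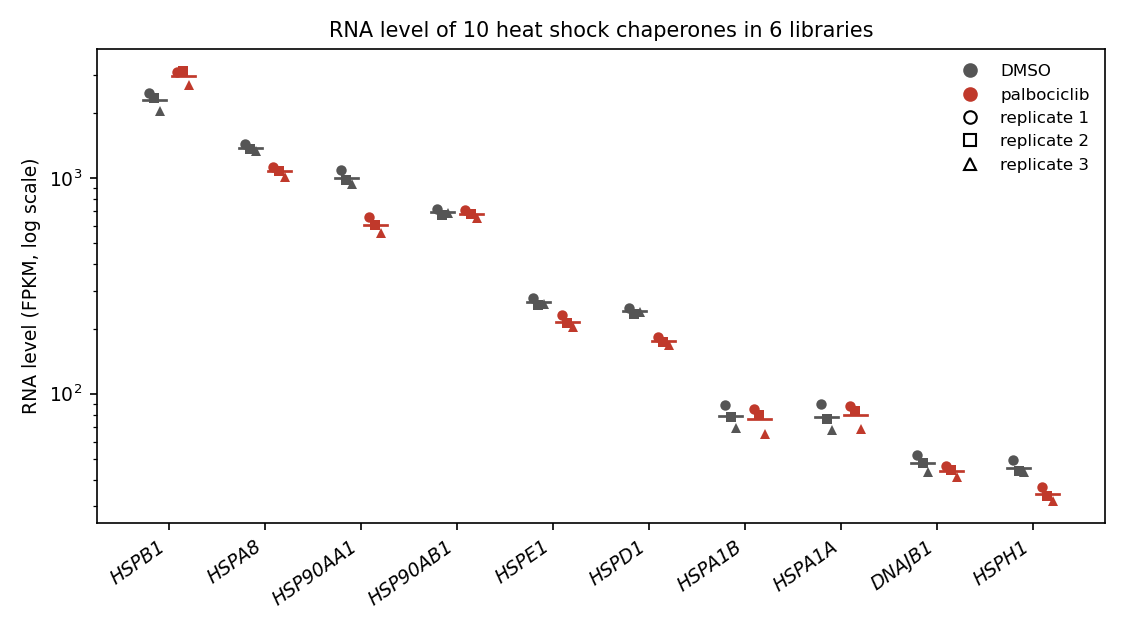
RNA level in FPKM (vertical axis, log scale) of the 10 chaperones (horizontal axis, ordered by DMSO mean). Grey marks DMSO and red palbociclib, symbols mark the replicate and lines the group means; HSPB1 sits highest, and HSP90AA1 shows the widest gap between the groups.

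HSP90AA1 (ENSG00000080824, GRCh38 chr14:102080742-102139749, minus strand) encodes the inducible cytosolic HSP90 and changed most. Its level was 1087, 978.0 and 934.8 FPKM in DMSO replicates 1, 2 and 3 and 657.3, 603.7 and 557.6 in the palbociclib replicates. The groups were far apart, and the lowest DMSO library stood well above the highest palbociclib library. The means were 999.8 ± 78.2 and 606.2 ± 49.9 FPKM, a log2 change of -0.72 ± 0.07 (SE). The authors' deposited table gives a log2 fold change of -0.72 (SE 0.063) for the gene.

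HSP90AB1 (ENSG00000096384, chr6:44246194-44253883, plus strand) encodes the constitutive partner of HSP90AA1. Its level was 715.7, 676.6 and 688.7 FPKM with DMSO and 709.2, 683.7 and 655.0 with palbociclib. The groups overlapped, and the log2 change was -0.02 ± 0.04. The ratio of HSP90AA1 to HSP90AB1 was 1.52, 1.45 and 1.36 in the DMSO libraries and 0.927, 0.883 and 0.851 in the palbociclib libraries. HSP90AA1 was thus the more abundant of the 2 HSP90 transcripts in every DMSO library and the less abundant in every palbociclib library.

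HSPA8 (ENSG00000109971, chr11:123057489-123062462, minus strand) encodes the constitutive cytosolic HSP70. It had 1438, 1362 and 1332 FPKM with DMSO and 1124, 1082 and 1017 with palbociclib. The groups lay apart, with a log2 change of -0.36 ± 0.05. Among all genes ranked by level, HSPA8 went from 45 to 70, and HSP90AA1 from 70 to 126.

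HSPA1A (ENSG00000204389, chr6:31815543-31817942, plus strand) had 89.8, 76.3 and 67.5 FPKM with DMSO and 87.5, 82.9 and 68.7 with palbociclib. HSPA1B (ENSG00000204388, chr6:31827738-31830254, plus strand) had 88.5, 78.1 and 69.5 FPKM with DMSO and 85.3, 79.5 and 64.7 with palbociclib. The groups of both genes overlapped, with replicate 1 highest and replicate 3 lowest under each treatment. Reads of such near-identical copies can be split either way in counting, so the single values are uncertain. Their sum was 178.3, 154.4 and 137.0 FPKM with DMSO and 172.8, 162.4 and 133.4 with palbociclib. The log2 changes were 0.03 ± 0.11 for HSPA1A and -0.04 ± 0.11 for HSPA1B, and with FPKM divided by the library sum that of HSPA1A was -0.04.

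With HSPA8 lower and the inducible copies overlapping between treatments, the mix of cytosolic HSP70 transcripts differed. The ratio of HSPA1A plus HSPA1B to HSPA8 was 0.124, 0.113 and 0.103 with DMSO and 0.154, 0.150 and 0.131 with palbociclib. The ranges did not overlap, although HSPA8 exceeded the sum of both copies in all 6 libraries.

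HSPH1 (ENSG00000120694, chr13:31134973-31162388, minus strand) encodes an HSP110, the nucleotide exchange factor of HSP70. It had 49.1, 43.6 and 43.5 FPKM with DMSO and 36.9, 33.7 and 31.8 with palbociclib. The groups lay apart, with a log2 change of -0.40 ± 0.07. The ratio of HSPH1 to HSPA8 overlapped between the treatments.

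DNAJB1 (ENSG00000132002, chr19:14514769-14560391, minus strand) encodes an HSP40, the stress-inducible J-domain partner of HSP70. It had 52.3, 47.6 and 43.5 FPKM with DMSO and 46.1, 44.3 and 41.0 with palbociclib. The groups overlapped, and the log2 change was -0.12 ± 0.07. Relative to HSPA8 it was 0.0363, 0.0350 and 0.0327 with DMSO and 0.0410, 0.0410 and 0.0404 with palbociclib, ranges that did not overlap.

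HSPD1 (ENSG00000144381, chr2:197486584-197500274, minus strand) encodes HSP60, the barrel of the mitochondrial chaperonin. It had 250.1, 234.0 and 238.2 FPKM with DMSO and 183.9, 174.0 and 168.6 with palbociclib. HSPE1 (ENSG00000115541, chr2:197500379-197503449, plus strand) encodes HSP10, the lid of that barrel. It had 276.7, 258.1 and 261.9 FPKM with DMSO and 231.1, 212.2 and 203.4 with palbociclib.

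Both genes of this divergent arrangement lay apart and lower. The log2 changes were -0.45 ± 0.04 for HSPD1 and -0.30 ± 0.05 for HSPE1. Their ratio was nearly fixed with DMSO, at 0.904, 0.907 and 0.909 (SD 0.003). With palbociclib it was lower and more spread, at 0.796, 0.820 and 0.829 (SD 0.017). HSPE1 shares its start with the read-through gene HSPE1-MOB4, and reads of its exons cannot be assigned to 1 of them with certainty.

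HSPB1 (ENSG00000106211, chr7:76302673-76304292, plus strand) encodes HSP27, a small heat shock protein that holds unfolded clients without ATP. It had 2473, 2361 and 2053 FPKM with DMSO and 3112, 3145 and 2707 with palbociclib. It was the most abundant of the 10 in every library, and its groups lay apart in the direction opposite to the 5 genes that lay apart and lower. The log2 change was 0.38 ± 0.08, and it was 0.09 after quantile normalization, which sets the top ranks of all libraries to common values. HSPB1 was at rank 20 of all genes under both treatments.

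**Figure D2:**
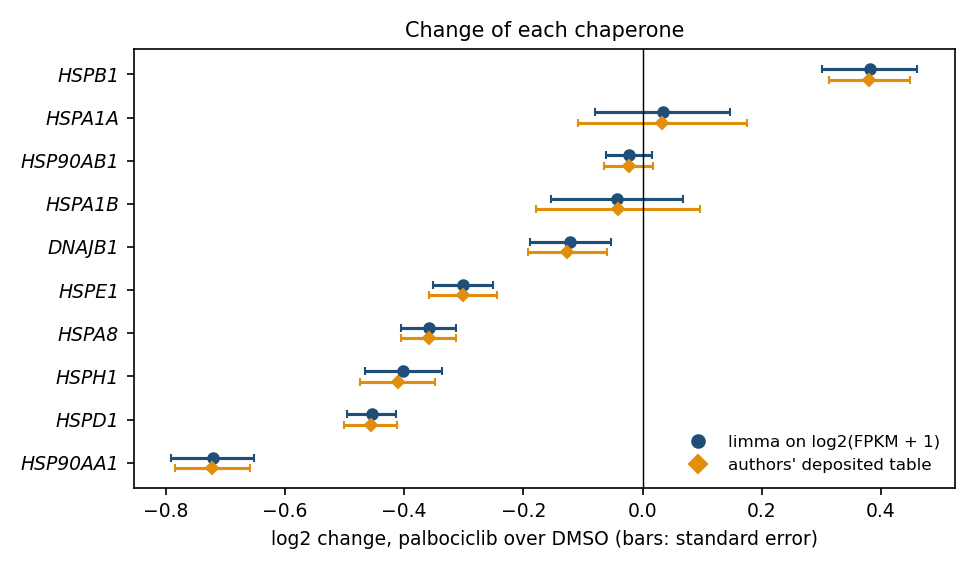
Log2 change of each chaperone, palbociclib over DMSO (horizontal axis), from log2(FPKM + 1) (blue circles) and from the authors' deposited table (orange diamonds), with bars for the standard error. HSP90AA1 lies lowest at -0.72 and HSPB1 highest at 0.38, and the values from both sources lie within a standard error of each other.

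HSPB1 made up 37.9%, 38.6% and 35.8% of the summed FPKM of the 10 genes with DMSO and 49.6%, 51.2% and 49.1% with palbociclib. The 10 genes together took 0.915%, 0.861% and 0.781% of all FPKM with DMSO and 0.811%, 0.813% and 0.737% with palbociclib, and these ranges overlapped. The overlap rested on HSPB1, since the other 9 genes took 0.568%, 0.528% and 0.501% of all FPKM with DMSO and 0.409%, 0.397% and 0.375% with palbociclib, and those groups lay apart. The ratio of HSPB1 to HSPA8 was 1.72, 1.73 and 1.54 with DMSO and 2.77, 2.91 and 2.66 with palbociclib.

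**Figure D3:**
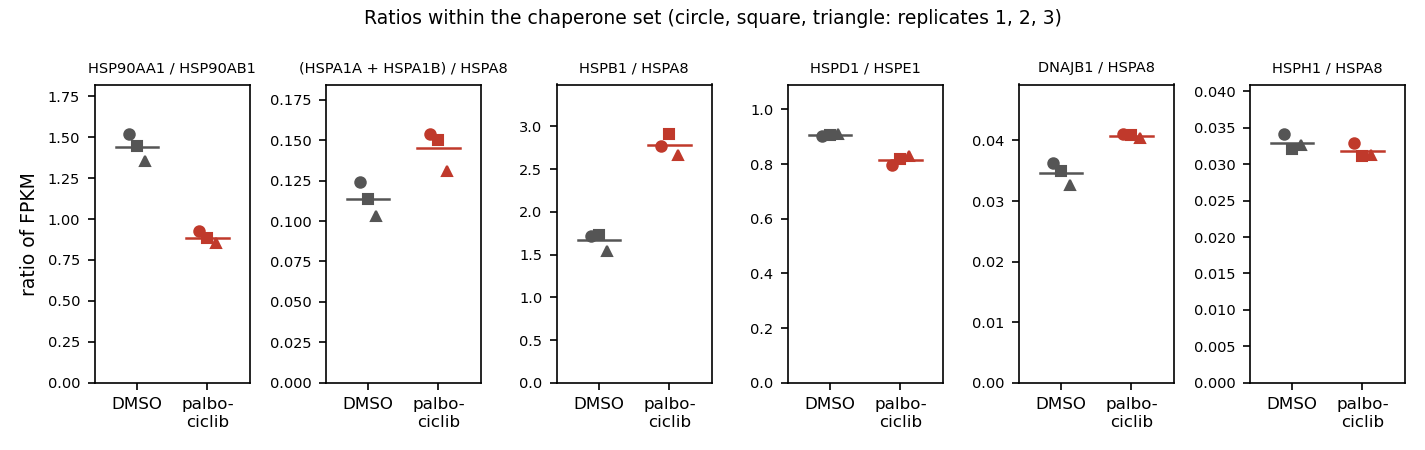
Ratios of FPKM within each library (vertical axes, from 0) for 6 chaperone pairings, DMSO in grey and palbociclib in red, with symbols for replicates and lines for means. The groups are apart for all but HSPH1 to HSPA8, and HSP90AA1 to HSP90AB1 passes from above 1 to below 1.

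Libraries differed in a way that ran across the chaperones. DMSO replicate 1 was the highest DMSO library for 10 of the 10 genes, as it was for 33.3% of all tested genes. Palbociclib replicate 3 was the lowest of its group for 10 of 10, as for 39.4% of all genes. Palbociclib replicate 1 was the highest of its group for 9 of 10, and DMSO replicate 3 the lowest for 7 of 10. Shares over all genes are not given for these last counts, so nothing is read from them. HSPA1A and HSPA1B, which may share reads, are both counted throughout. Leaving out each library in turn kept HSP90AA1 between -0.78 and -0.66, HSPA8 between -0.39 and -0.32, HSPD1 between -0.49 and -0.43, HSPE1 between -0.35 and -0.26, HSPH1 between -0.46 and -0.34 and HSPB1 between 0.30 and 0.45 on the log2 scale.

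The genes most like a chaperone over the 6 libraries were found by the Euclidean distance of log2(FPKM + 1) centred on each gene's mean, among 14163 other genes that averaged 1 FPKM or more. Nearest to HSP90AA1 were ENSG00000289154 (distance 0.079), NDOR1 (0.091) and TOE1 (0.104). Nearest to HSPA8 were RUSC1 (0.046), AARS1 (0.053) and HNRNPH3 (0.055), and nearest to HSPD1 were RFC1 (0.048), PRRG4 (0.051) and COLGALT1 (0.055). None of these 9 is another of the 10 chaperones, but members did lie near each other elsewhere. HSPA1A was the nearest gene of all to HSPA1B (distance 0.111), whose reads it may share, and HSPA1B was at place 2 for HSPA1A. In the order for HSPH1, HSPA8 was at place 13, HSPD1 at 17 and HSPE1 at 45. HSPE1 was at place 476 in the order for HSPD1, in spite of the shared upstream stretch.

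The wider chaperone network, 135 genes in 10 lists without the 10 members, was then read in the same fit. These lists too were written with earlier results on these data known. The calls and p-values below therefore describe the contrast and are no independent test of the lists. Of 124 tested, 26 rose (21%) and 42 fell (33.9%) at a limma adjusted p under 0.05, with a median log2 change of -0.04. Over all genes 20.9% rose and 22.9% fell. The split depended on scaling, with 12 higher and 60 lower when FPKM were divided by the library sum, and 38 higher and 34 lower after quantile normalization. The same scalings gave 2255 higher and 4907 lower, and 4588 higher and 2856 lower, over all genes.

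Cytosolic partners of HSP90 more often fell than rose. Of 23 HSP90 co-chaperones 10 fell and 3 rose, with a median log2 change of -0.11, and the split was 15 and 1 with library sums and 8 and 6 with quantile normalization. PTGES3, the p23 co-chaperone that stabilises client-bound HSP90, fell from 347.6 ± 6.60 to 230.9 ± 0.880 FPKM (SD, n = 3 per group; limma adjusted p = 7.39e-07). NUDC fell from 65.0 ± 2.44 to 42.3 ± 1.32 FPKM (adjusted p = 6.78e-06 by limma). CDC37, which brings kinases to HSP90, rose by a log2 change of 0.19 ± 0.03 (adjusted p = 0.00189 by limma), and UNC45A, a myosin chaperone, rose by 0.18 ± 0.04 (limma adjusted p = 0.01).

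Most of the other HSP70 and HSP110 genes were lower too, with 5 of 7 tested falling, 1 rising and a median of -0.39. HSPA2 fell from 2.81 ± 0.0971 to 0.939 ± 0.0292 FPKM (limma adjusted p = 1.00e-05), and HSPA14, a ribosome-associated HSP70, from 28.5 ± 0.940 to 17.9 ± 1.29 FPKM (limma adjusted p = 3.49e-05). HSPA4, an HSP110, rose from 68.2 ± 1.97 to 75.5 ± 0.845 FPKM (limma adjusted p = 0.00741). HSPA6, an HSP70 gene that is nearly silent without heat, stayed under the filter at 0.08 to 0.19 FPKM in the 6 libraries.

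Among 23 other J-domain genes of the cytosol and nucleus, 7 fell and 4 rose, with a median of -0.06. The split was 9 lower and 1 higher with library sums but 5 lower and 7 higher after quantile normalization, and 2 rose without RNA palbociclib replicate 1. DNAJC9, a J-domain protein that is also a histone chaperone, fell from 31.6 ± 0.554 to 11.0 ± 0.490 FPKM (limma adjusted p = 4.06e-08), a log2 change of -1.44 ± 0.04. DNAJA4 fell by 0.37 ± 0.04 in log2, DNAJB2 rose by 0.30 ± 0.05 and DNAJC16 rose by 0.30 ± 0.09 (limma adjusted p = 0.000108, 0.00211 and 0.0335). Of 9 nucleotide exchange factors and partners 2 fell, BAG2 and BAG5, by 0.35 ± 0.07 and 0.22 ± 0.04, and 1 rose (HSPA4, which is in both lists). That split also turned with scaling, at 4 lower and 0 higher with library sums and 2 lower and 3 higher after quantile normalization, and 2 rose without RNA palbociclib replicate 3.

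The cytosolic chaperonin TRiC, which folds actin and tubulin, and its feeder prefoldin had 9 of 14 subunits lower and 2 higher, with a median of -0.17. The split was 11 and 0 with library sums and 9 and 3 after quantile normalization. CCT5 fell from 255.7 ± 8.75 to 172.7 ± 4.12 FPKM (limma adjusted p = 4.57e-06), and TCP1 fell from 169.2 ± 1.62 to 117.3 ± 1.26 FPKM (limma adjusted p = 1.39e-06). The 2 that rose were the prefoldin subunits PFDN5, by 0.15 ± 0.03, and PFDN6, by 0.13 ± 0.04 (limma adjusted p = 0.00902 and 0.0413). Only 1 rose when DMSO replicate 2 or 3 or palbociclib replicate 1 or 2 of the RNA libraries was left out, with no filter on low values, or with no intensity trend.

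Of 17 other mitochondrial chaperones and proteases 6 fell and 2 rose, with a median of -0.10. GRPEL2 and AFG3L2 fell by 0.29 ± 0.05 and 0.25 ± 0.04, while GRPEL1, the main nucleotide exchange factor of mitochondrial HSP70, rose by 0.27 ± 0.04 (limma adjusted p = 0.00231, 0.0021 and 0.000623). HSCB, a J-domain protein of iron-sulphur cluster assembly, rose by 0.34 ± 0.06 (limma adjusted p = 0.00327).

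Chaperones of the endoplasmic reticulum went the other way. Of 20 tested, 11 rose and 1 fell, with a median of 0.13, and their summed level was 3430 to 3646 FPKM with DMSO and 3877 to 4192 with palbociclib. HSPA5, the HSP70 of that compartment known as BiP, rose from 428.3 ± 17.1 to 596.8 ± 29.9 FPKM (limma adjusted p = 6.01e-05). DNAJB9 rose by 0.38 ± 0.05 (limma adjusted p = 0.000657), and SDF2L1 was the 1 that fell, by 0.15 ± 0.04 (limma adjusted p = 0.0127). The counts were 6 higher and 3 lower with library sums and 12 and 0 after quantile normalization, and 7 rose without RNA DMSO replicate 2 or without palbociclib replicate 1.

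HSPB8, a small heat shock protein of selective autophagy, rose from 33.1 ± 1.76 to 55.0 ± 1.00 FPKM (limma adjusted p = 3.86e-06), and is in both the small heat shock list (1 of 2 tested rose) and the list of polyubiquitin and clearance genes. In the latter, UBB, a polyubiquitin gene, fell from 476.2 ± 5.33 to 393.2 ± 26.2 FPKM (limma adjusted p = 0.00172).

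Of the heat shock factors, HSF1 had 43.5, 43.8 and 39.0 FPKM with DMSO and 44.3, 46.5 and 41.0 with palbociclib, which overlapped (log2 change 0.06 ± 0.06; limma adjusted p = 0.45). HSF2 fell from 6.55 ± 0.0575 to 5.24 ± 0.0504 FPKM (limma adjusted p = 0.00267), and HSF4 rose from 49.8 ± 4.07 to 64.0 ± 3.85 FPKM (limma adjusted p = 0.00251). Transcript levels do not report the activity of HSF1, which is set on the protein.

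**Figure D4:**
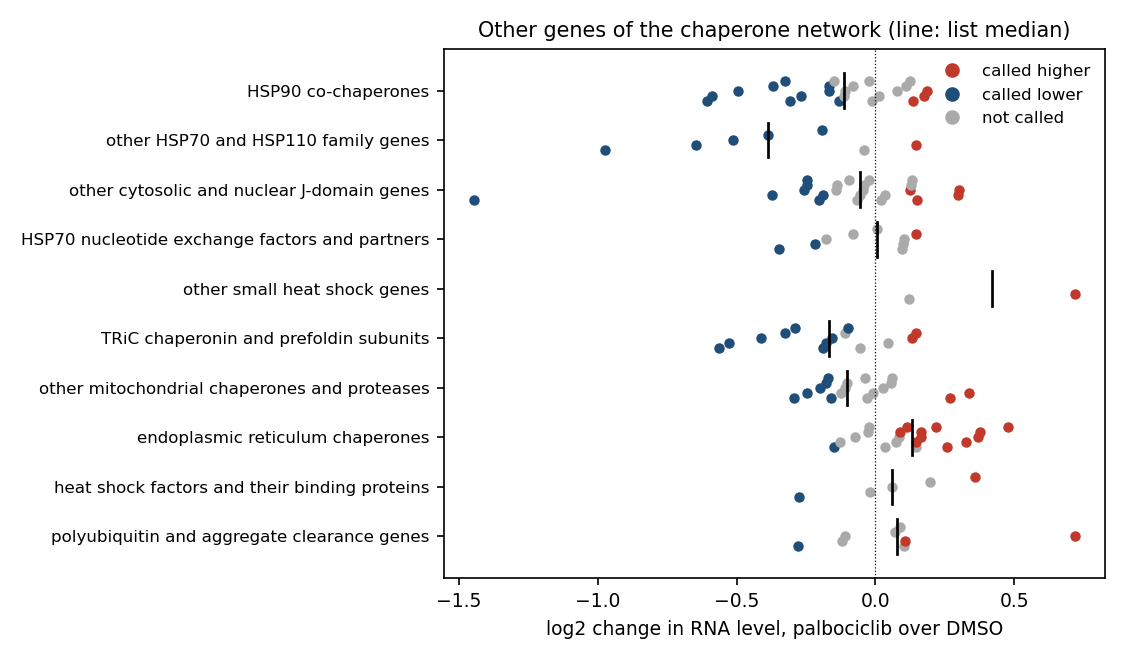
Log2 change in RNA level, palbociclib over DMSO (horizontal axis), of each tested gene in 10 lists of the chaperone network without the 10 members; red was called higher and blue lower by limma, grey was not called, and black lines are list medians. Points lie mostly left of 0 for TRiC (median -0.17) and right of 0 for the endoplasmic reticulum (median 0.13), and DNAJC9 lies farthest left.

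Accessibility was measured in other cultures and can be tested. Over 38121 peaks, edgeR's quasi-likelihood test called 11.9% at an adjusted p under 0.05, 5.41% more and 6.46% less accessible with palbociclib. Peaks within 1 kb of a listed start covered 5 of the 10 chaperones (HSPD1 and HSPE1, which share 1, HSPH1, DNAJB1 and HSPB1) with 5 peaks in all. The other 5 chaperones had no peak of the analysed set within 1 kb of a start. A peak there was present for 43.9% of 3866 protein-coding genes that averaged 20 FPKM or more.

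None of the 5 promoter peaks was called, by edgeR or by DESeq2, and 0 had an unadjusted p under 0.05. The shared peak of HSPD1 and HSPE1 (chr2:197499646-197500561), which covers the 104 bases printed above, had 177.8, 158.8 and 164.8 counts scaled to the library total (CPM) with DMSO and 165.4, 163.5 and 160.0 with palbociclib. Its groups overlapped, and the log2 change was -0.03 (95% interval -0.13 to 0.06; edgeR adjusted p = 0.703). RNA of both genes was lower, while an accessibility change beyond that interval was not seen at their common start.

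The HSPH1 promoter peak (chr13:31161642-31162653) went from 116.1 ± 2.27 to 121.2 ± 6.08 CPM (SD, n = 3 per group), a log2 change of 0.06 (95% interval -0.04 to 0.16; edgeR adjusted p = 0.457). The DNAJB1 peak (chr19:14528908-14529929) lies at the most upstream of the gene's listed starts, though the annotated span of the gene reaches further upstream. It is 10511 bases or more from the other listed starts, which include the start beside the DNAJB1 elements printed above. The log2 change was -0.05 (95% interval -0.14 to 0.05; edgeR adjusted p = 0.585). That peak also covers the start of TECR, so it is not the property of DNAJB1 alone.

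At HSPB1 the promoter peak (chr7:76302198-76302989), which covers the upstream bases printed above, was the strongest of the 5. It had 236.5, 222.8 and 234.1 CPM with DMSO and 242.2, 222.0 and 224.6 with palbociclib. The groups overlapped, with a log2 change of -0.01 (95% interval -0.10 to 0.08; edgeR adjusted p = 0.933). A weaker peak 853 bases into the gene (chr7:76303526-76303759) had a log2 change of -0.10 (95% interval -0.23 to 0.03; edgeR adjusted p = 0.333). Its groups lay apart, at 55.3, 52.4 and 53.3 CPM with DMSO and 52.1, 47.7 and 49.9 with palbociclib, though it was not called.

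Within 10 kb of the 10 genes lay 12 further peaks, beside 5 of them, of which 2 were called less accessible and 0 more (16.7%, against 11.9% of all peaks). Both lie downstream of HSPB1. The nearer (chr7:76304897-76305389, outside any listed gene) had 98.2, 98.9 and 102.7 CPM with DMSO and 85.0, 90.6 and 87.2 with palbociclib, so its groups lay apart. It fell by 0.19 on the log2 scale (95% interval -0.30 to -0.08; edgeR adjusted p = 0.0114), and the call was lost without ATAC DMSO replicate 3 (adjusted p = 0.0707) or without palbociclib replicate 1 (adjusted p = 0.0912).

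The farther peak (chr7:76310211-76310996, outside any listed gene) had 154.6, 166.3 and 166.7 CPM with DMSO and 143.4, 144.6 and 129.3 with palbociclib. It fell by 0.23 (95% interval -0.32 to -0.13; edgeR adjusted p = 0.000847), and every library of the palbociclib group was below every DMSO library. HSPB1 RNA was higher in the RNA cultures while these 2 peaks were less accessible in the ATAC cultures. Whether either peak acts on HSPB1 was not tested.

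**Figure D5:**
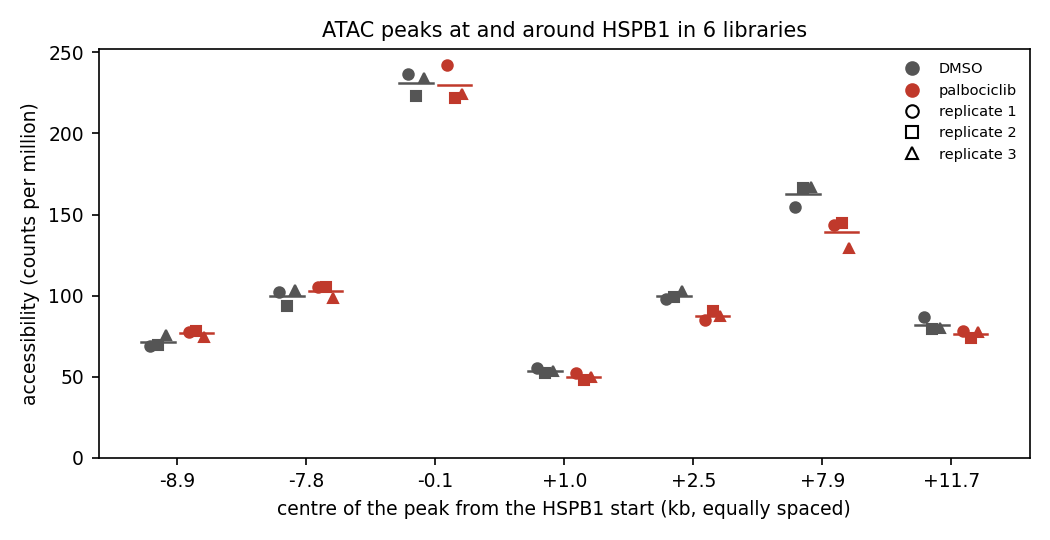
Accessibility in CPM, counts scaled to the library total (vertical axis, from 0), of 7 ATAC peaks at HSPB1, ordered by the distance of their centre from the gene's start in kb (horizontal axis, equally spaced), with DMSO in grey, palbociclib in red, symbols for replicates and lines for means. The groups overlap at the promoter peak near 231.1 and 229.6 CPM, and the peaks at +2.5 and +7.9 kb are lower with palbociclib. The groups also lie apart and lower at +1.0 and +11.7 kb, where the peaks were not called, and they overlap at -8.9 and -7.8 kb. The share of all peaks whose groups lie apart is not given, so nothing is read from the peaks that were not called.

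Splicing of the chaperone transcripts was read from inclusion levels, the share of transcripts that keep an exon or intron. The authors' splicing tables list 100 events of these genes, and 11 events of 6 genes averaged 20 reads or more in a library and had the minor form in 5% of reads or more. In 1 of the 11 the groups lay apart, against 13.8% of all 37439 events of that depth. This was an 812-base intron of HSPH1 (chr13:31140310-31141121), retained in 0.607%, 0.718% and 0.761% of transcripts with DMSO and 1.034%, 1.099% and 1.537% with palbociclib. Retention stayed rare in every library, and no test was made of it. With no filter on the minor form, 8 of 91 events lay apart, against 8.15% of all 118871 events.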

How the data were processed

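The members, gene lists and tests were chosen with earlier results of these data known. The sample titles call the ATAC replicates biological replicates, while the RNA titles give only a replicate number. Replicates of both were taken as separate cultures. FPKM per gene and a table of log2 fold changes with p-values were deposited by the authors; the submitters' processing notes name Salmon 1.10.2, STAR 2.7.10b and DESeq2 1.44.0 for the RNA samples, and Bowtie2 2.5.4-6, Picard 3.4.0-0, MACS3 3.0.3-0 and featureCounts for ATAC, all on GRCh38. Peak counts were made by the authors with featureCounts without a read-pair option, per the file headers, so they were taken as reads. Inclusion counts came from the authors' deposited rMATS tables.

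RNA was compared on log2(FPKM + 1) by limma 3.58.1 in R 4.3.3, its trend option on, and peaks with edgeR 4.0.16 (TMM, filterByExpr), with Benjamini-Hochberg adjustment over all 15869 genes or 38121 peaks. Intervals of accessibility are approximate, from the F statistic. On simulated data with 200 changed features, limma recovered 66% of genes changed 1.5-fold and 80% changed 2-fold, and edgeR 89% and 99% of peaks. Many more were called in the real data, and the simulated peaks shared a common spread, so these rates may not carry over. Alternatives were other pseudocounts, filters, scalings, windows, DESeq2 1.42.0 and leaving out each library.

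Named were all members, up to 2 risers and 2 fallers per list with a mean FPKM of at least 1, HSF1, HSF2, MKI67, ESR1 and the 3 genes nearest to HSP90AA1, HSPA8 and HSPD1; the other markers and HSPA6 were named after their values were seen, and 1 gene that the rule names is not reported here. Of 19460 genes 18484 had a symbol. Promoter sequences, starts and genes are from RefSeq (GRCh38.p14).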

Additional observations from a re-analysis of the deposited data

How the results depend on the processing

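The 6 members whose RNA groups lay apart and the 2 called peaks kept their direction under every alternative run, while HSPA1A, HSPA1B, HSP90AB1 and some peaks that were not called changed sign under at least 1. With FPKM divided by the library sum, the log2 changes were -0.10 for HSP90AB1, -0.44 for HSPA8, -0.53 for HSPD1 and -0.38 for HSPE1, and 12 network genes rose. After quantile normalization they were -0.085 for HSP90AB1, -0.488 for HSPA8 and 0.089 for HSPB1; these scalings moved the median of all genes to -0.07 and 0.06. Leaving out 1 RNA library at a time left 17 to 29 network genes higher (17 without palbociclib replicate 1) and 1 to 5 splicing events apart (4 when DMSO replicate 3 was left out, 5 for palbociclib replicate 1 and 2 for each other palbociclib replicate). Leaving out 1 ATAC library left 1 to 3 peaks around the genes called, 1 without DMSO replicate 3 or palbociclib replicate 1. With promoters widened to 2500 bases 1 peak was called, the nearer one downstream of HSPB1, and without the filter on the minor form 8 splicing events lay apart. The cause was not tested, beyond fewer libraries or wider windows. Deviations from the group means correlated weakly between same-numbered DMSO and palbociclib libraries, at 0.11, -0.01 and 0.09 for RNA. Unlike numbers gave -0.14 to 0.05. For ATAC, same numbers gave -0.03 to 0.04 and unlike numbers -0.07 to 0.06. These values do not settle whether same-numbered libraries belong together. With a replicate block 30 network genes rose and 45 fell, and 3 nucleotide exchange factors and partners rose. HSP90AA1 then changed by -0.72, and 2 peaks around the genes and 0 promoter peaks were called. The FPKM table gives no read depth, and the planned comparison of member proteins was not run.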

Other observations

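A DNAJB1 event below the filter on the minor form is given as values, chosen after they were seen. Inclusion of the exon at chr19:14518139-14518268 against a junction that skips it was 96.1%, 95.2% and 94.9% with DMSO and 88.8%, 92.7% and 87.5% with palbociclib, from 10, 15 and 10 skipping reads against 27, 17 and 29. The groups lay apart. A separate event concerned the exon near the most upstream of the gene's listed starts (chr19:14527687-14527810). It counted 57, 64 and 35 reads with DMSO and 116, 114 and 112 with palbociclib, while the FPKM of DNAJB1 overlapped. These are raw reads, not scaled to depth.

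HSPE1, HSPD1 and HSPA8 have many pseudogene copies, to which reads of a parent gene can be assigned. RefSeq lists 28 pseudogenes of HSPE1, 22 of HSPD1 and 20 of HSPA8 by symbol, and 0 of HSPA1A or HSPA1B. None of those of HSPE1 was analysed here, so the levels below do not cover that gene. Those of HSPA8 and HSPD1 analysed here, 2 each, summed to at most 0.990 and 0.534 FPKM in any library; the parent levels are given above. The 1 analysed pseudogene of HSPB1 had 0.695 to 2.43 FPKM.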
